A study of Mus musculus with 6 samples.

Results

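Wnt ligands, their receptors and their secreted antagonists were compared between dorsal root ganglia (DRG), the seat of the sensory neurons' cell bodies, and spinal cord (SC) of adult mice. The genes were all those whose symbol marks them as a Wnt ligand, a Frizzled receptor, the co-receptors Lrp5 and Lrp6, a Dickkopf (Dkk) or secreted Frizzled-related (Sfrp) protein, Frzb, Wif1, Axin1, Axin2, Lef1 or a Tcf7 gene, taken from probe sets that name a single gene. This gave 47 genes with 93 probe sets, of 18192 genes and 45032 probe sets tested. They were 19 Wnt ligands, 10 Frizzled receptors, 2 co-receptors, 4 Dkk genes, 6 genes of the Sfrp, Frzb and Wif1 group, 2 Axin genes, 3 genes of the Tcf/Lef group and Fzd10os, the antisense transcript of Fzd10 that the choice by symbol also takes in. Both tissues came from male C57BL/6J mice aged 3 months, for which the labels name no treatment or altered gene, from lumbar levels L1 to L6, with tissue of the left and right sides combined. Each tissue had 3 arrays, each array carried RNA of a pool of 4 mice, and the labels call the pools independent.

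Wnt proteins are secreted lipid-modified ligands. Binding of a Wnt to a Frizzled receptor and to Lrp5 or Lrp6 stops the destruction complex built on Axin and Apc from degrading beta-catenin, which then enters the nucleus and switches on genes together with Tcf/Lef factors. Sfrp proteins, Frzb and Wif1 bind Wnts outside the cell, whereas Dkk1 blocks Lrp5 and Lrp6. Other Wnts, Wnt5a among them, act without beta-catenin, through Ror receptors or the planar polarity proteins. In the nervous system the pathway is known for patterning the dorsal spinal cord and the neural crest, from which DRG neurons and glia arise, and for guiding axons and forming brain vessels.

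Secreted antagonists were among the genes that differed most. Sfrp5 signal was 7.68-fold higher in DRG than in SC, and the signal of the related Sfrp4 was at least 3.36-fold higher in DRG. Among ligands, Wnt9a and Wnt6 were higher in DRG and Wnt7b was at least 2.36-fold higher in SC. Of the 47 genes, 13 passed the test as higher in DRG and 3 as higher in SC, while 31 did not pass in either direction. Signals here are array intensities recovered from the deposited ratios, on the authors' array scaling, and a pass means limma's Benjamini-Hochberg adjusted p under 0.05 over all probe sets on log2(signal + 16). A fold not given as a lower bound is the ratio of geometric mean signals without the added 16, so it is somewhat larger than the log2 difference beside it gives. A gene is described by its brightest probe set unless another is named.

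The shares that passed were close to, or below, those over all genes, so the counts do not set the Wnt genes apart. The 13 genes higher in DRG were 27.7% of the 47, against 31.8% of all 18192 genes, and the 3 genes higher in SC were 6.38%, against 9.70% of all genes. With a log2 difference of at least 1 as well, 5 genes (10.6%) stood higher in DRG and 3 (6.38%) in SC, against 11.5% and 4.77% of all genes. The 3 DRG arrays lay wholly above the 3 SC arrays for 16 genes (34.0%, against 37.9% of all genes) and wholly below them for 5 genes (10.6%, against 13.8%). By probe set, 21 (22.6%) were higher in DRG and 8 (8.60%) in SC, against 22.7% and 9.79% of all probe sets. The median log2 difference, DRG minus SC, was 0.23 over the 47 genes and 0.18 over all genes.

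**Figure D1:**
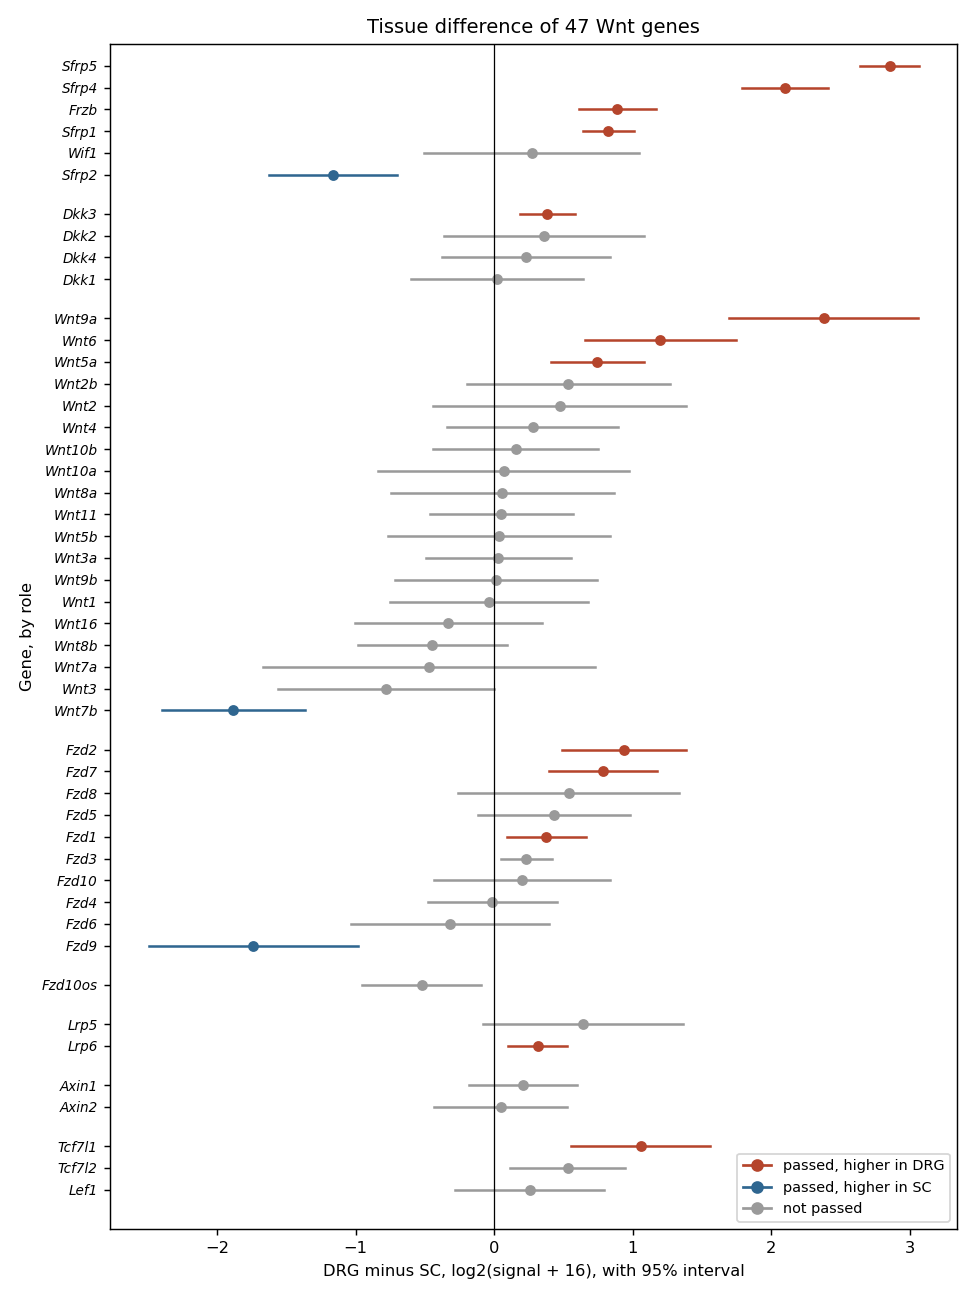
Log2 difference, DRG minus SC, of the 47 genes on log2(signal + 16), grouped by role, with 95% intervals. Red marks the 13 genes that passed as higher in DRG, blue the 3 that passed as higher in SC and grey the 31 that did not pass. Sfrp5 lies farthest to the right at 2.86 and Wnt7b farthest to the left at -1.88.

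Array scaling moves small differences. The authors divided each array by a factor of its own, 84.9, 89.5 and 84.5 for DRG and 110.5, 111.9 and 112.6 for SC, and the median log2 difference of all genes was 0.18 with it, 0.04 after quantile normalization and -0.10 before the authors' scaling. After quantile normalization 10 of the 47 genes (21.3%, against 20.5% of all genes) were higher in DRG and 4 (8.51%, against 16%) in SC. Before the authors' scaling 8 (17.0%, against 19.3%) were higher in DRG and 6 (12.8%, against 19.7%) in SC. On all 3 scalings 8 genes passed as higher in DRG (Sfrp5, Sfrp4, Frzb, Sfrp1, Fzd2, Tcf7l1, Wnt6 and Wnt9a) and 3 as higher in SC (Wnt7b, Fzd9 and Sfrp2). These were 17.0% and 6.38% of the 47 genes, against 17.4% and 9.50% of all genes.

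**Figure D2:**
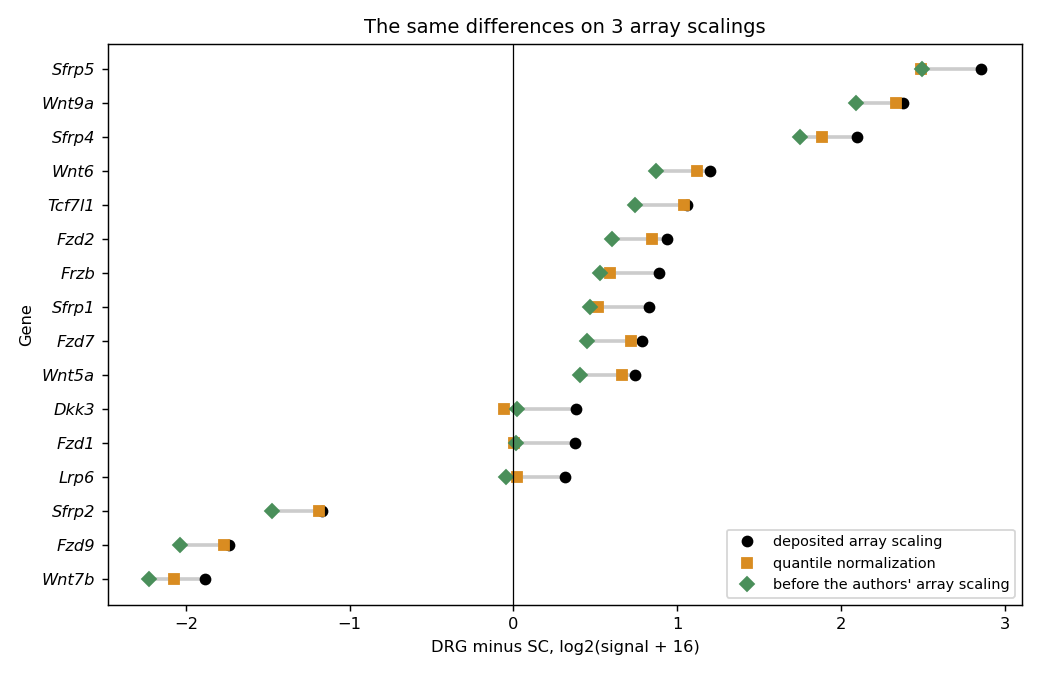
Log2 difference, DRG minus SC, of the 16 genes that passed, on the deposited array scaling (black circles), after quantile normalization (orange squares) and before the authors' array scaling (green diamonds). Sfrp5, Wnt9a and Sfrp4 stay to the right and Wnt7b, Fzd9 and Sfrp2 to the left on each scaling, whereas Dkk3, Fzd1 and Lrp6 lie near 0 on the other two.

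Many of these genes were dim, as were many genes of the array. A background level was set on each array from 28 probe sets of 21 genes of other organs, such as liver and pancreas, as the 95th percentile of their signals, which was 209.7, 224 and 163 on the DRG arrays and 189, 171 and 204 on the SC arrays. Signals of 27 of the 47 genes (57.4%) were at or under it on every array, against 43.9% of all genes. Above it on at least 1 DRG array were 16 genes (34.0%, against 52.5% of all genes), and on at least 1 SC array 13 genes (27.7%, against 48.7%). A signal under this level does not show that a gene is silent. Where a tissue was under it on all 3 arrays, the fold is a lower bound against this level.

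The tissues carried their defining markers. All 8 sensory neuron markers measured were higher in DRG, with summed signals of 34941 to 36016 in DRG and 649 to 791 in SC, and all 7 astrocyte markers were higher in SC, with sums of 1135 to 1204 in DRG and 20183 to 22392 in SC. Whole tissue was measured, so fewer cells of a type and less RNA per cell cannot be told apart. Arrays of the same tissue correlated at 0.969 to 0.973 and arrays of different tissues at 0.884 to 0.890.

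Promoter sequences are shown for 4 of the genes that passed, the antagonist Sfrp5, the ligands Wnt9a and Wnt6, and the receptor Fzd7, because their mRNA differed between the tissues and because Fzd7 carries a Tcf/Lef-type motif. Each is the 250 bases before the RefSeq transcript start in mouse build GRCm38.p6, written 5′ to 3′ on the gene's strand, in lower case with motif matches in capitals. They lie at chr19:42202253-42202502 on the minus strand for Sfrp5, and on the plus strand at chr11:59306680-59306929 for Wnt9a, chr1:74771642-74771891 for Wnt6 and chr1:59481897-59482146 for Fzd7.
Sfrp5: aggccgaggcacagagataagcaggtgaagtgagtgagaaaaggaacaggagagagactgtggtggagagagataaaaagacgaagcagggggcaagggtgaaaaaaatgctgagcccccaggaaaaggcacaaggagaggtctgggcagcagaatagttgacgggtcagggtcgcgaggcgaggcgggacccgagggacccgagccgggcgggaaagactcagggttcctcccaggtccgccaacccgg
Wnt9a: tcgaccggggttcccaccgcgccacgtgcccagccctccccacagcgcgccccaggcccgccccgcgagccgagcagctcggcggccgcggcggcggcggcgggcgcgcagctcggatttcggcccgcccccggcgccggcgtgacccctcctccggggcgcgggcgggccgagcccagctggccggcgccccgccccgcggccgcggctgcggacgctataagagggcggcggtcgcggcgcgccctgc
Wnt6: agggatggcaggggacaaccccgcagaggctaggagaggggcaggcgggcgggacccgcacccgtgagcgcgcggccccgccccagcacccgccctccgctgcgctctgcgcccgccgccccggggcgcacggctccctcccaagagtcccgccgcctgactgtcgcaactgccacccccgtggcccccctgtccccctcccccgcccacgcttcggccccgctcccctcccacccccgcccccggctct
Fzd7: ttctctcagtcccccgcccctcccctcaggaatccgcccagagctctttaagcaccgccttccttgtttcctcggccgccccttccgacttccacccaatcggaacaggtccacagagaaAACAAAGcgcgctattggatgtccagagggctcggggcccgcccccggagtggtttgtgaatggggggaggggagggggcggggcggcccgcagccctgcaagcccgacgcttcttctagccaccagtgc

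The motifs searched were CTTTGAA plus the forms CTTTGAT or else CTTTGTA or else CTTTGTT on both strands, forms of the sequence that Tcf/Lef factors bind, and no other motif was searched. The match in Fzd7 is CTTTGTT on the opposite strand. RefSeq windows were found for 31 of the 47 genes, 38 windows in all, and 6 of them (15.8%) held a match, against 4874 of 32851 windows of the same length over all genes (14.8%). The other windows with a match belonged to Lef1, Wnt5b, Wnt11, Dkk1 and Tcf7l2, none of which passed the test, and the windows of Sfrp5, Wnt9a and Wnt6 held none. The bases differed in composition, with G and C making up 59.6% of the Sfrp5 window, 84.4% of the Wnt9a window, 79.6% of the Wnt6 window and 65.2% of the Fzd7 window. A match is a string of letters and is no evidence of binding.

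Of the 19 Wnt ligands, 3 (15.8%) passed as higher in DRG and 1 (5.26%) in SC, against 31.8% and 9.70% of all genes. The ligands' median log2 difference was 0.05 (-0.22 before the authors' scaling), and 14 of them were never above the background level. Wnt9a, a ligand known for its part in joint formation, had signals of 211, 199.9 and 188 in DRG, against 10.03, 41.3 and 31.6 in SC. The groups lie far apart, and the DRG signals are near the background level, above it on 2 of 3 arrays. It differed by 2.38 on the log2 scale (SE 0.30, 95% interval 1.70 to 3.06), limma's adjusted p = 0.000216, and the fold is at least 1.06 against that level. The second Wnt9a probe set had a log2 difference of 0.60 (adjusted p = 0.311), with every array under that level.

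Wnt6, a ligand of epithelia that signals through beta-catenin, had signals of 298, 163 and 221 in DRG, against 96.8, 105 and 64.7 in SC. The lowest DRG array is above the highest SC array, with a wide spread among DRG arrays, and 2 of 3 DRG arrays were above the background level. On the log2 scale it differed by 1.20 (SE 0.24, 95% interval 0.66 to 1.74), adjusted p = 0.00373, at least 1.18-fold. Its second probe set did not pass (0.59, adjusted p = 0.235).

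Wnt5a had signals of 220.3, 195 and 188 in DRG, against 114, 101 and 127 in SC. The groups do not overlap, and the log2 difference was 0.74 (95% interval 0.41 to 1.08), adjusted p = 0.00373, at least 1.07-fold. Before the authors' scaling it was 0.41 and did not pass (adjusted p = 0.0647). Of its 3 other probe sets 1 passed, also higher in DRG, with a log2 difference of 0.66 (adjusted p = 0.0479), but it did not pass when the first or the third DRG array or any SC array was left out (0.49 to 0.76).

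Wnt7b ran the other way. This ligand, with Wnt7a, is known for directing vessel growth and the blood-brain barrier in the central nervous system. Its signals were 139.6, 148 and 71.3 in DRG, against 412, 465 and 528 in SC, so that all 3 SC arrays exceeded the background level and no DRG array did. The log2 difference was -1.88 (SE 0.23, 95% interval -2.40 to -1.37), adjusted p = 0.000166, and SC was at least 2.36-fold higher. The second Wnt7b probe set pointed the same way, with 13.3, 26.9 and 12.2 in DRG, against 157, 109 and 117 in SC (log2 difference -2.12, adjusted p = 0.000244).

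Wnt7a was less uniform. Its brightest probe set had 241.0, 209.6 and 35.4 in DRG, against 234, 139 and 188 in SC. The third DRG array alone was far below the others, and the difference of -0.47 did not pass (95% interval -1.67 to 0.73, adjusted p = 0.58). A dimmer Wnt7a probe set, never above the background level, had 28.2, 32.9 and 42.9 in DRG, against 101, 88.1 and 67.4 in SC. It passed as higher in SC (log2 difference -0.997, adjusted p = 0.0129), and without the first SC array it did not (-0.89, adjusted p = 0.0544).

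The other 15 ligands, Wnt7a among them, did not pass by their brightest probe set. Their array signals ran from 3.25 to 241.0 and their log2 differences from -0.78 for Wnt3 to 0.54 for Wnt2b. Wnt3, a ligand known in spinal cord for shaping sensory axon terminals, had 31.2, 22.6 and 3.25 in DRG, against 36.0, 47.7 and 38.0 in SC, all far under the background level, and its difference did not pass although its arrays did not overlap (adjusted p = 0.124, and 0.0462 before the authors' scaling). Wnt1 and Wnt3a, the ligands of the embryonic roof plate, differed by -0.04 and 0.03. Of the 3 scalings, Wnt8b passed only before the authors' scaling (-0.75, against -0.45 on the deposited one). A second Wnt4 probe set passed as higher in SC at very low signal (13.2, 10.97 and 8.48 in DRG, against 54.0, 17.5 and 45.9 in SC, adjusted p = 0.0375), while the brighter one had a difference of 0.28 that did not pass. The dimmer set did not pass when any DRG array, or the first or the third SC array, was left out (-1.03 to -0.76).

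Some ligand genes lie beside each other in the genome. RefSeq places 4 pairs of ligands with 0 protein-coding genes between them, namely Wnt6 with Wnt10a, Wnt9a with Wnt3a, Wnt9b with Wnt3, and Wnt10b with Wnt1. Wnt6 and Wnt9a passed as higher in DRG, and their neighbours Wnt10a and Wnt3a had log2 differences of 0.07 and 0.03 that did not pass (95% intervals -0.84 to 0.97 and -0.49 to 0.55). In the remaining pairs no gene passed. Whether neighbours differed from each other was not tested.

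**Figure D3:**
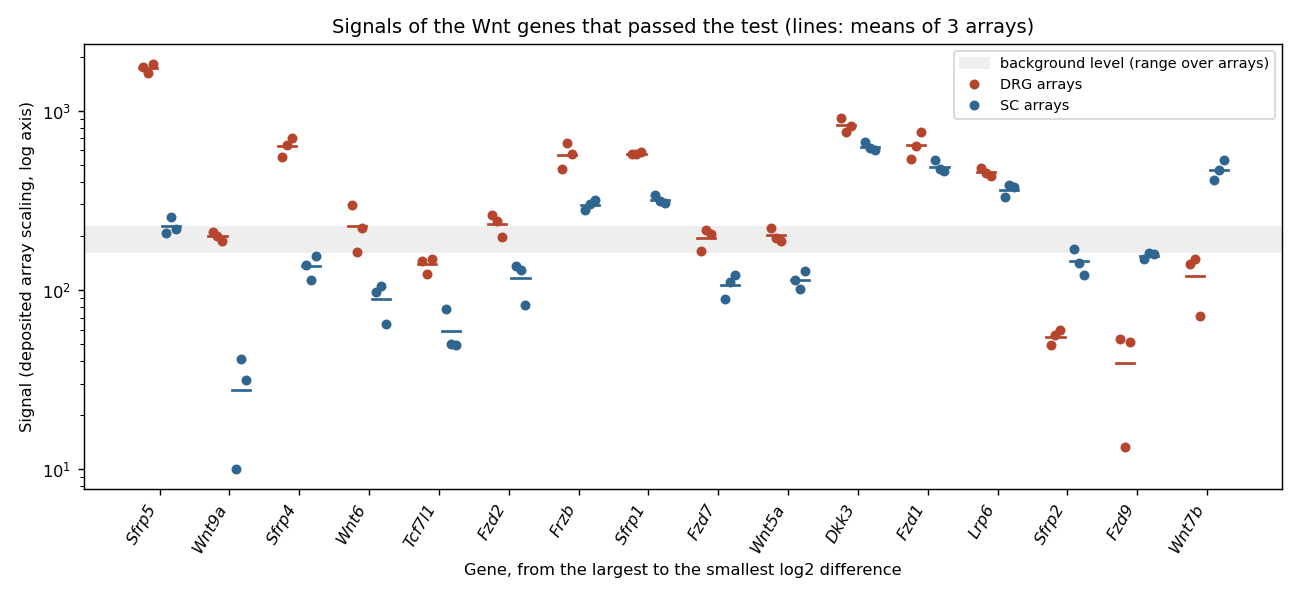
Signal on each array (log axis, deposited array scaling) of the 16 genes that passed, with DRG in red left of SC in blue and bars at the means of 3 arrays. The grey band is the range over arrays of the background level, 163 to 224. Sfrp5 DRG arrays sit at 1629 to 1815, far above the band, while Tcf7l1 and Fzd9 lie under it in both tissues.

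Of the 10 Frizzled receptors, 3 (30%) passed as higher in DRG and 1 (10%) in SC, against 31.8% and 9.70% of all genes. The receptors' median log2 difference was 0.30 (0.07 after quantile normalization and -0.06 before the authors' scaling). Fzd2, a receptor for beta-catenin dependent and independent Wnts, had signals of 261, 242 and 196 in DRG, against 137, 128 and 82.2 in SC. All DRG arrays exceeded all SC arrays, with a log2 difference of 0.94 (95% interval 0.49 to 1.39), adjusted p = 0.00517, at least 1.23-fold. All 3 of its probe sets passed as higher in DRG, the other 2 with differences of 0.99 and 1.52. Fzd7, a close relative of Fzd2, had 165, 216 and 205.5 in DRG, against 88.8, 110.3 and 121 in SC. The groups do not overlap, and the log2 difference was 0.79 (95% interval 0.39 to 1.18), adjusted p = 0.0063, at least 1.04-fold, but 0.45 before the authors' scaling, where it did not pass (adjusted p = 0.0855). The mean of its 2 probe sets gave 0.29 and did not pass (adjusted p = 0.281).

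Fzd1 had 534, 636 and 757.5 in DRG, against 532, 471 and 458 in SC. The lowest DRG array and the highest SC array were nearly equal. Its log2 difference of 0.38 (adjusted p = 0.0467) shrank to 0.01 after quantile normalization and 0.02 before the authors' scaling, and did not pass there. It also did not pass when the second or the third DRG array or any 1 SC array was left out (0.25 to 0.44). Fzd3, a receptor of axon guidance and planar polarity, had 663, 602 and 626 in DRG, against 504, 533 and 566 in SC. It did not pass (log2 difference 0.23, 95% interval 0.05 to 0.42, adjusted p = 0.0553), and its sign turned to -0.16 after quantile normalization and -0.13 before the authors' scaling.

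Fzd9, a receptor gene in the region deleted in Williams syndrome in humans, was lower in DRG. Its signals were 52.9, 13.3 and 50.9 in DRG, against 148, 159.6 and 158 in SC. The groups are well apart, but no array of either tissue reached the background level, so no fold is given. The log2 difference was -1.74 (SE 0.33, 95% interval -2.49 to -0.99), adjusted p = 0.00285. Of the Frizzled genes that did not pass, Fzd4, Fzd5, Fzd6, Fzd8 and Fzd10 had differences of -0.01, 0.43, -0.32, 0.54 and 0.20. Fzd10os had 128, 82.1 and 97.9 in DRG, against 152, 167 and 139 in SC, with a log2 difference of -0.52 that did not pass on the deposited scaling (adjusted p = 0.0656). It passed as higher in SC after quantile normalization (adjusted p = 0.0474) and before the authors' scaling (adjusted p = 0.00589).

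Lrp6, a co-receptor for Wnts, had 478, 451 and 432 in DRG, against 328, 383 and 375 in SC. Its DRG arrays were all above its SC arrays, and the log2 difference was 0.31 (95% interval 0.10 to 0.53), adjusted p = 0.03, 1.25-fold. It was 0.02 after quantile normalization and -0.04 before the authors' scaling and did not pass there, so the direction depends on the scaling. Without the first DRG array (0.28), the second DRG array (0.32), the first SC array (0.25) or the third SC array (0.34) it did not pass. Lrp5, its paralogue, did not pass (log2 difference 0.64, 95% interval -0.08 to 1.36) and its signals of 9.56 to 49.8 lay under the background level.

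Of the 6 genes of the Sfrp, Frzb and Wif1 group, 4 (66.7%) passed as higher in DRG and 1 (16.7%) in SC. Over all genes the shares were 31.8% and 9.70%. The group's median log2 difference was 0.86 (0.55 after quantile normalization and 0.50 before the authors' scaling). Sfrp5, a secreted antagonist known in fat for binding Wnt5a, had signals of 1755, 1629 and 1815 in DRG, against 207, 255 and 217 in SC. Every DRG array was far above every SC array and both tissues were above the background level. In log2 terms the tissues differed by 2.86 (SE 0.09, 95% interval 2.64 to 3.07), adjusted p = 4.85e-08, and the signals themselves differed 7.68-fold. The second Sfrp5 probe set had 676, 918 and 829.8 in DRG, against 128, 118 and 134 in SC (log2 difference 2.52, adjusted p = 5.31e-07, at least 4.27-fold), so both probe sets gave the same picture.

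Sfrp4, whose loss in humans thins the cortex of bone, had signals of 548, 643 and 707 in DRG, against 138, 114 and 155 in SC. All DRG arrays exceeded the background level and no SC array did. The log2 difference was 2.10 (SE 0.14, 95% interval 1.79 to 2.41), adjusted p = 3.12e-06, at least 3.36-fold. It was 1.88 after quantile normalization and 1.75 before the authors' scaling.

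Frzb, a Wnt antagonist of cartilage and joints, had 474, 656 and 574 in DRG, against 277, 299.5 and 315 in SC. The groups do not overlap, both are above the background level, and the log2 difference was 0.89 (95% interval 0.61 to 1.17), adjusted p = 0.000377, 1.90-fold. Its second probe set passed as well, with a difference of 1.08 (adjusted p = 0.000946). Sfrp1, with the same Wnt-binding domain, had 572, 572 and 584 in DRG, against 337, 312 and 305 in SC by its brightest probe set, 1428136_at. The log2 difference there was 0.83 (95% interval 0.64 to 1.01), adjusted p = 4.41e-05, 1.81-fold.

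Sfrp1 was the only gene of the 47 with probe sets that passed in both directions. Probe set 1438620_x_at, whose suffix marks a set that can match other transcripts, had 73.5, 83.5 and 70.9 in DRG, against 139, 139.7 and 181 in SC (log2 difference -0.87, 95% interval -1.29 to -0.46, adjusted p = 0.00496), all under the background level. The other 3 Sfrp1 probe sets did not pass, at -0.21, 0.05 and 0.13, and the mean over its probe sets gave -0.02. The direction of Sfrp1 therefore rests on which probe set is read.

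Sfrp2 was lower in DRG, with 49.0, 56.1 and 59.5 in DRG, against 169.6, 141 and 121 in SC. The arrays of the tissues do not overlap, yet none reached the background level, so no fold is given. Its log2 difference was -1.17 (SE 0.20, 95% interval -1.63 to -0.70), adjusted p = 0.00165. Wif1, which binds Wnts through a domain other than that of the Sfrp proteins, had signals of 0.35 to 19.6 on the 6 arrays. It did not pass (log2 difference 0.27, adjusted p = 0.629).

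Of the 4 Dkk genes, 1 (25%), Dkk3, passed as higher in DRG and 0 in SC, against 31.8% and 9.70% of all genes. Dkk3, the family member without a settled role in blocking Lrp5 and Lrp6, had 910.0, 759.9 and 815 in DRG, against 669, 621 and 600.3 in SC. The log2 difference was 0.38 (95% interval 0.19 to 0.58), adjusted p = 0.00775, 1.31-fold, with non-overlapping arrays. It was -0.06 after quantile normalization and 0.02 before the authors' scaling and did not pass there. A second Dkk3 probe set also passed on the deposited scaling only (0.62, with 0.19 after quantile normalization and 0.25 before the authors' scaling). Dkk1, Dkk2 and Dkk4 had log2 differences of 0.02, 0.36 and 0.23, did not pass, and had signals of 1.39 to 72.9, under the background level.

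Axin2, a scaffold of the destruction complex and a common feedback target of beta-catenin signalling, had 293, 172 and 184 in DRG, against 161, 224 and 232 in SC. The groups overlap, the highest DRG array standing above all others, and the log2 difference of 0.05 did not pass (95% interval -0.43 to 0.53, adjusted p = 0.907). Its sign depended on the scaling, at -0.10 after quantile normalization and -0.30 before the authors' scaling. Axin1 did not pass by its brightest probe set (0.21, adjusted p = 0.434). A second Axin1 probe set, 1426967_at, passed as higher in SC, with 88.9, 77.1 and 64.003 in DRG, against 149, 187 and 184 in SC (log2 difference -1.03, adjusted p = 0.00197).

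Of the 3 Tcf/Lef genes 1 (33.3%), Tcf7l1, passed as higher in DRG and 0 in SC, against 31.8% and 9.70% of all genes. None of the 3 was above the background level on any array. Tcf7l1, which acts largely as a repressor, had 144, 122 and 149 in DRG, against 78.5, 49.6 and 49.4 in SC. The groups do not overlap, with a log2 difference of 1.06 (SE 0.22, 95% interval 0.56 to 1.56), adjusted p = 0.00479, and its second probe set also passed (0.78, adjusted p = 0.0294). Tcf7l2, a factor with a known part in oligodendrocyte maturation, had 119, 117 and 119 in DRG, against 86.5, 67.8 and 77.8 in SC, and did not pass (0.53, adjusted p = 0.0545, and 0.0172 without an intensity trend). Lef1 did not pass either (0.26, adjusted p = 0.491).

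Probe sets of a gene differed in whether they passed for 11 of the 30 genes with more than 1 probe set. For Axin1, Wnt7a and Wnt4 a dimmer probe set passed as higher in SC while the brightest did not pass. Fzd3 had 6 probe sets, of which 1421157_at passed as higher in DRG at low signal (log2 difference 1.13, adjusted p = 0.031) and the other 5 did not pass. Without the first DRG, second DRG, first SC or the third SC array 1421157_at did not pass either (0.89 to 1.15). In the remaining 6 of the 11 genes (Fzd1, Fzd7, Lrp6, Wnt5a, Wnt6 and Wnt9a), the brightest probe set passed as higher in DRG. It was the only set to pass in each gene but Wnt5a, where another passed in the same direction. Of the sets of these genes that did not pass, only that of Fzd7 had a negative difference (-0.20).

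**Figure D4:**
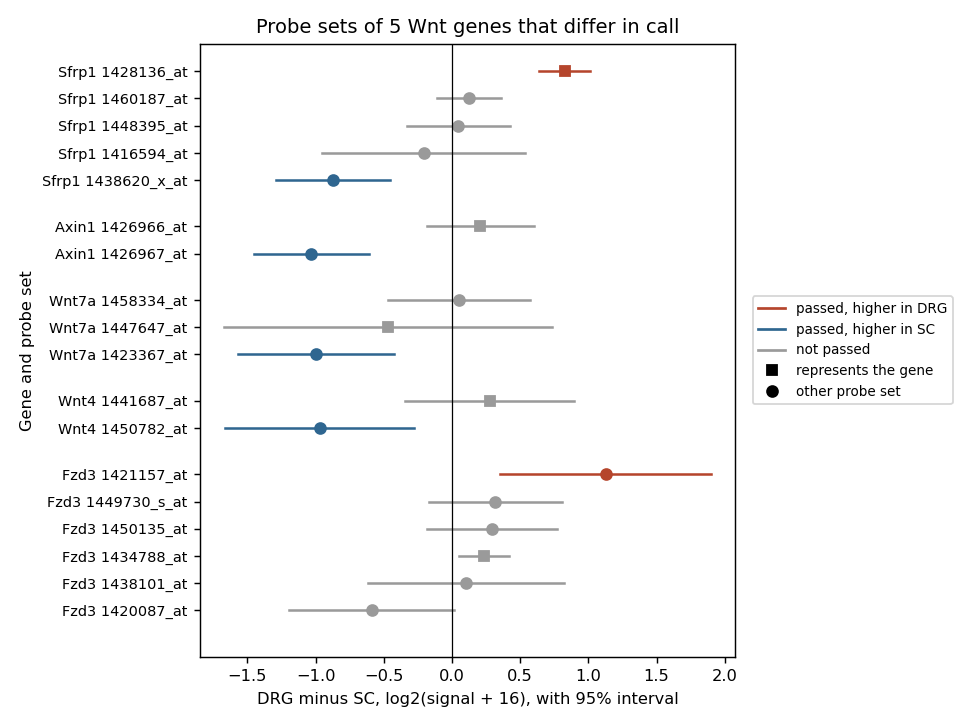
Log2 difference, DRG minus SC, with 95% interval for each probe set of Sfrp1, Axin1, Wnt7a, Wnt4 and Fzd3, where squares mark the probe set that represents the gene. Sfrp1 runs between 0.83 and -0.87, and 1426967_at of Axin1 lies at -1.03 while the brightest Axin1 set lies at 0.21.

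The rest of the pathway was described by a textbook list of 63 genes, of which 62 were measured. Of these, 24 passed as higher in DRG (38.7%, against 31.8% of all genes) and 9 as higher in SC (14.5%, against 9.70%), and their median log2 difference of 0.26 moved to -0.01 by quantile normalization and to -0.08 without the authors' scaling. On all 3 scalings 15 passed as higher in DRG (24.2%, against 17.4% of all genes) and 9 as higher in SC (14.5%, against 9.50%). Of the 9 R-spondins and their receptors and ligases, 4 (44.4%) were higher in DRG and 1 (11.1%) in SC. Rspo2, which keeps Wnt receptors on the cell surface through Lgr receptors, had 1521, 1340.3 and 1547 in DRG, against 185, 141 and 130.1 in SC (log2 difference 3.15, SE 0.13, adjusted p = 1.52e-07, at least 7.82-fold). Its receptor Lgr4 was 2.68-fold higher in DRG (1.38, adjusted p = 1.67e-06), and Znrf3, the ligase that removes Frizzleds, was at least 1.06-fold higher in SC (-0.58, adjusted p = 0.00982). With probe sets averaged neither passed (Lgr4 0.24, Znrf3 -0.26).

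Among 8 other secreted or membrane modulators, 2 (25%) were higher in DRG and 0 in SC, against 31.8% and 9.70% of all genes. Sostdc1, a secreted protein that binds Lrp6 and also blocks bone morphogenetic proteins, had 748, 800.2 and 755 in DRG, against 91.6, 61.1 and 69.6 in SC (log2 difference 3.13, SE 0.14, adjusted p = 2.58e-07, at least 4.09-fold). Gpc3, a cell-surface proteoglycan, was at least 1.96-fold higher in DRG (1.38, adjusted p = 0.000166). Of the 2 genes of Wnt secretion, Porcn, which attaches the lipid to Wnts, passed at 0.49 (0.13 on both other scalings, where it did not pass).

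Of 13 alternative receptors and planar polarity genes, 2 (15.4%) passed as higher in DRG and 4 (30.8%) in SC. Over all genes the shares were 31.8% and 9.70%. Ror2, a receptor for Wnt5a, had 98.4, 163 and 148 in DRG, against 10.1, 42.2 and 43.6 in SC (log2 difference 1.74, adjusted p = 0.00437), under the background level on all arrays. Celsr1, also under that level on all arrays, had a difference of 1.17 (adjusted p = 0.0151). Celsr1 did not pass without the third DRG array (1.05), nor before the authors' scaling (0.89, adjusted p = 0.0546). Celsr2 and Vangl2, planar polarity proteins of the cell membrane, were 2.58-fold and 2.23-fold higher in SC (-1.33 and -1.06, adjusted p = 4.84e-05 and 0.00479), with Vangl2 above the background level on 1 of 3 DRG arrays.

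Of 13 genes of the destruction complex and its transducers, 8 (61.5%) were higher in DRG and 1 (7.69%) in SC. Over all genes the shares were 31.8% and 9.70%. Csnk1d, a casein kinase, was 2.32-fold higher in DRG (1.20, adjusted p = 4.79e-06), Apc was 1.97-fold higher (0.97, adjusted p = 8.04e-05), and Btrc, which marks beta-catenin for degradation, was 1.19-fold higher in SC (-0.25, adjusted p = 0.0419). Apc did not pass with its probe sets averaged (0.12), nor did Btrc without the third DRG array or any 1 SC array (-0.25 to -0.20). After quantile normalization 5 of the 13 were higher in DRG and 2 in SC, where the shares over all genes were 20.5% and 16%. Of 10 nuclear cofactors, 4 (40%) were higher in DRG and 2 (20%) in SC. Those higher in DRG were led by the corepressors Tle1 (1.45, 2.80-fold) and Tle4 (0.86, 1.85-fold). Those higher in SC were Pygo1 (-0.69) and Tle2 (-0.64). Pygo1, under the background level on all arrays, did not pass without the first or the third DRG array or any 1 SC array (-0.73 to -0.55).

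Of 7 other feedback and target genes, 3 (42.9%) passed as higher in DRG and 1 (14.3%) in SC. The shares over all genes were 31.8% and 9.70%. Cd44, a hyaluronan receptor, had 2872, 2861 and 2774 in DRG, against 194, 179 and 149 in SC (log2 difference 3.91, SE 0.10, adjusted p = 1.14e-08, 16.4-fold in signal, with 2 of 3 SC arrays above the background level). Myc had a difference of 1.60 (adjusted p = 0.000171), with 1 of 3 DRG arrays and no SC array above the background level. Tnfrsf19, a receptor of the tumour necrosis factor family, had 49.1, 18.1 and 64.6 in DRG, against 346, 383 and 372 in SC (-2.76, SE 0.29, adjusted p = 6.26e-05, at least 1.86-fold higher in SC). The target genes that passed thus did not share a direction. Whether their shares differ from those over all genes was not tested.

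**Figure D5:**
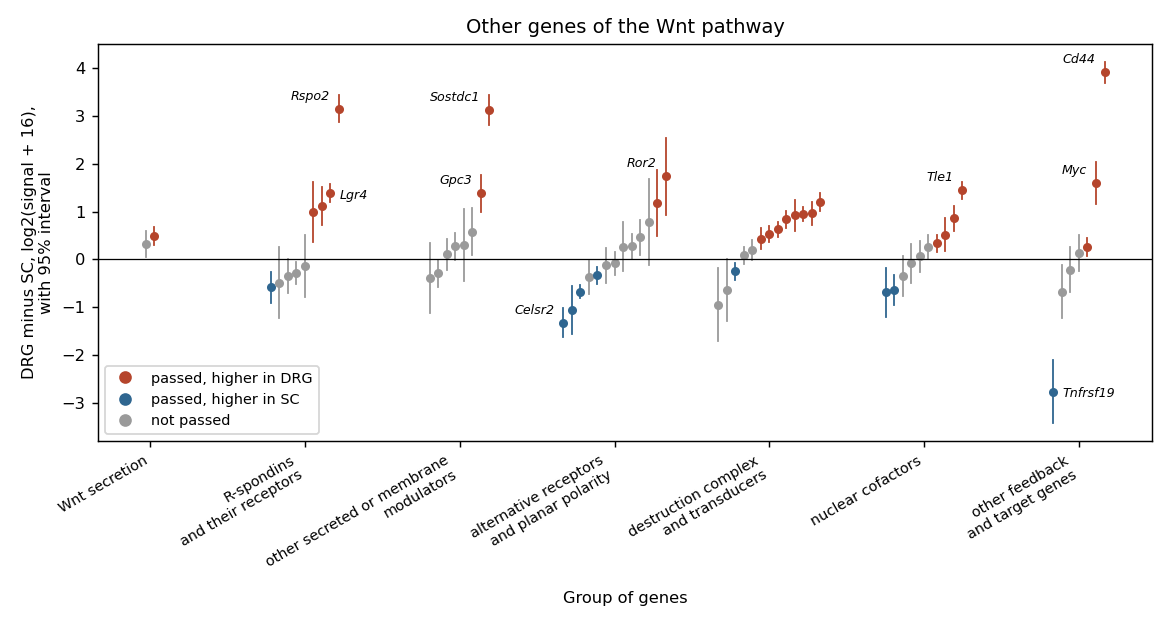
Log2 difference, DRG minus SC, with 95% interval for the 62 other pathway genes, in 7 groups by role and sorted within a group. Red points passed as higher in DRG, blue points as higher in SC and grey points did not pass. Cd44 (3.91), Rspo2 (3.15) and Sostdc1 (3.13) are highest and Tnfrsf19 (-2.76) is lowest.

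Markers of several cell types also differed between the tissues. Over all genes, 31.8% passed as higher in DRG and 9.70% as higher in SC. Of 8 genes of fibroblasts, perineurium and meninges, 6 were higher in DRG and 1 in SC, and their summed signals were 15820 to 16867 in DRG and 3530 to 3921 in SC. All 4 Schwann cell markers measured were higher in DRG (13229 to 14264 in DRG, 3159 to 3810 in SC), as were 3 adipocyte markers (721 to 973 in DRG, 161 to 379 in SC). Of 4 cartilage and bone markers 1 was higher in SC and the other 3 did not pass, with sums of 125 to 182 in DRG and 244 to 347 in SC. In the other direction, 6 of 7 oligodendrocyte lineage markers were higher in SC (10289 to 10874 in DRG, 22510 to 26669 in SC). Mbp, with a mean of 8157, made up most of the DRG sum. Olig1, Olig2 and Ermn had DRG means of 21.3, 5.35 and 20.0, under the background level on all 3 DRG arrays. The other 4 were above it on all 3. Of 8 endothelial and mural markers 4 were higher in DRG and 2 in SC (4645 to 5025 in DRG, 3341 to 3527 in SC). Among 4 ependymal markers 2 were higher in SC (409 to 521 in DRG, 614 to 717 in SC). Of 7 spinal neuron markers 5 were higher in SC and 1 in DRG (3687 to 4019.7 in DRG, 11632 to 12280 in SC), and 3 of 5 macrophage and microglia markers were higher in SC (1305 to 1421 in DRG, 2031 to 2329.7 in SC). Of 3 satellite glia markers 1 was higher in DRG and 2 in SC (7753 to 9118 in DRG, 7488 to 8725 in SC). Of 4 skeletal muscle markers 0 passed, and 0 had an unadjusted p under 0.05 in limma's test (360.2 to 1320.5 in DRG, 357 to 1541 in SC). Genes of other organs, used to set the background level, also gave signals, so a marker signal above 0 does not show that its cell type was present. The part of these cell types in the Wnt gene differences was not tested.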

How the data were processed

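The 6 arrays, 3 of DRG and 3 of SC, were each hybridised with biotin-labelled RNA of 4 pooled mice, per the labels. The deposited values were linear ratios, made from MAS5 signals (version not stated) per the submitters' processing notes. How the ratios were formed is not given in the sources used here. It was read from the values, whose median over the 6 arrays was 1 in 91.8% of 45101 probe sets. The tests had been planned for signals, so signals were recovered from the deposited ratios by the steps of 0.1 in which MAS5 writes them, for 45096 probe sets. Each ratio was taken as the signal divided by an array factor and by the probe set's median, and recovered signals were put back on the deposited array scaling. For the 8.21% of probe sets with a median ratio under 1, a fixed cutoff of 0.1 took the median's place. Before the authors' scaling the trimmed mean signals of the arrays were already alike, at 247.5 to 247.7. A value at the lowest deposited ratio of 0.01 is an upper bound, and none of the Wnt genes had one. Depth has no counterpart on arrays, and the number of arrays limits the precision.

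Gene names came from the array platform's annotation table. A single gene was named for 34958, several for 932, and 34754 matched a RefSeq gene of GRCm38.p6 by Entrez identifier with no change of symbol. The files name no genome build. After 64 control probe sets were left out, 45032 were fitted with limma 3.58.1 in R 4.3.3 (lmFit and eBayes with an intensity trend, two-sided) on log2(signal + 16), with Benjamini-Hochberg adjustment over all of them and a threshold of 0.05. The pseudocount shrinks the log2 differences of dim genes. The fit was tested on simulated data. A gene's probe set of highest mean log2 value represented it. Signals were recovered with numba 0.67.0 and numpy 2.4.6 under Python 3.11.15. Tables were made with pandas 2.3.3 and figures with matplotlib 3.10.9.

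The genes and lists were chosen with earlier results of these data known. The rule for named genes took those that passed with a log2 difference of at least 1 and exceeded the background level in a tissue, the brightest gene of each role, and in each group of other pathway genes up to 2 that passed in each direction. The other Wnt genes given with array values were chosen after their values were seen. Deviations of arrays with the same replicate number correlated at -0.00995, -0.021 and 0.00344. Such values cannot show whether both tissues came from the same pools of mice, and the main fit did not pair the arrays. The alternatives tried were other array scalings, ratios in place of signals, other pseudocounts, a filter on dim probe sets, no intensity trend, other choices of probe set, a replicate block and leaving out each array.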

Additional observations from a re-analysis of the deposited data

How the results depend on the processing

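Sfrp5, Sfrp4, Frzb, Fzd2, Fzd9, Sfrp2, Tcf7l1, Wnt6, Wnt7b and Wnt9a kept their direction and passed under every alternative that could be run for them. There were 16 such alternatives for Fzd9, Sfrp2, Tcf7l1 and Wnt9a and 17 for the others. With the sign kept, Fzd1 no longer passed under 12 of 17 alternatives, Lrp6 under 9, Dkk3 under 3, Fzd7 under 2 and Wnt5a under 1. Before the authors' array scaling the signs of Axin2 (-0.30), Fzd3 (-0.13) and Lrp6 (-0.044) turned, and after quantile normalization those of Axin2 (-0.10), Fzd3 (-0.16) and Dkk3 (-0.055). With 1 array left out Axin2 ran between -0.18, without the first DRG array, and 0.18, and was -0.11 without the first SC array, while Sfrp1 turned to -0.017 when its probe sets were averaged. Before the authors' scaling, 12 probe sets and 8 genes of the Wnt group passed as higher in DRG and 13 probe sets and 6 genes as higher in SC, against 21, 13, 8 and 3 on the deposited scaling. With only probe sets above the median level tested, 33 of the Wnt group's 93 were left. Of these, 19 passed as higher in DRG and 4 as higher in SC. Among the other pathway genes 20 passed as higher in SC before the authors' scaling and 15 after quantile normalization, against 9. Over all genes the share higher in SC was 19.7% before the authors' scaling and 16% after quantile normalization, against 9.70%. With a gene's probe sets averaged, 18 of the other pathway genes passed as higher in SC. The cause of these rises was not tested. Leaving out 1 array gave 16 to 20 probe sets and 11 to 13 genes higher in DRG, 6 to 9 probe sets and 3 to 4 genes higher in SC, and 20 to 26 and 7 to 10 other pathway genes. With a replicate block, 17 probe sets and 11 genes were higher in DRG and 9 probe sets and 3 genes in SC. Other pathway genes numbered 24 and 8 there. Whether the replicate numbers pair the arrays is not known. Of 739 values of 45 single results under the alternatives, 654 kept direction and side of the threshold, 69 no longer passed, 7 newly passed and 9 changed sign. With 3 arrays per tissue, and 27 of the 47 genes never above the background level, a gene that did not pass is not shown to be equal in the tissues.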
